A study of Homo sapiens with 4 samples.

Results

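The sites described here are places in the genome with a peak of wild-type (WT) p53 both before and after its expression was induced and with a peak of p53 that has arginine in place of Lys120 (K120R) after induction. They were chosen from peak lists of chromatin immunoprecipitation sequencing (ChIP-seq) with an anti-p53 antibody, as peaks of WT p53 in tetracycline (Tet)-treated cells that overlapped by at least 1 bp both a WT peak of untreated cells and a K120R peak of Tet-treated cells. They numbered 253 of the 4326 WT peaks of Tet-treated cells, or 5.85%, and the 4 deposited lists held 6849 peaks in all. The cells were H1299, a human lung cancer line that lacks endogenous p53, in stable lines that expressed the Tet repressor and carried a lentiviral, Tet-inducible p53 gene. The 4 conditions were WT p53 untreated, WT p53 with Tet for 24 h, K120R p53 untreated and K120R p53 with Tet for 24 h, at a Tet dose of 1 µg/µl in the sample labels and 1 µg/ml in the methods. Each condition had 1 library with its own input, so no spread between experiments could be measured, and no p-value is given. An antibody signal in untreated WT cells is signal without added Tet, and the amount of p53 protein in each library was not analysed here.

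p53 is a transcription factor that acts as a tetramer. It binds response elements (REs) made of a pair of decamers, each with a core that starts with C, ends with G and has A or T between them, with purines before the core and pyrimidines after it. Through such elements it induces genes for cell cycle arrest, DNA repair, apoptosis and its own negative feedback, and Lys120 is a residue of its DNA-binding domain that contacts the bases beside the core from the major groove.

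An RE was found at nearly all of the sites, and the study singled out positions 3, 8, 13 and 18 of the RE, which lie directly beside the cores. The REs below are from 11 of the 31 sites at known p53 target genes, chosen after their values were seen and shown because they span these bases from 0 to 4 G/C. Each is the 20-bp window with the fewest mismatches to the consensus RE within 100 bp of the WT summit, written 5′ to 3′ on the plus strand of GRCh37, with capitals at positions 3, 8, 13 and 18.
CDKN1A (chr6:36644226-36644245): gaAcatgTcccaAcatgTtg
MDM2 (chr12:69202703-69202722): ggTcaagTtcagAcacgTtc
BBC3 (chr19:47734577-47734596): ggAcaagTcaggActtgCag
ZMAT3 (chr3:178787976-178787995): agGcatgTctggActtgTtt
EPHA2 (chr1:16479024-16479043): ggAtttgTtcagAcatgCcc
GADD45A (chr1:68152458-68152477): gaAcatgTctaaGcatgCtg
PLK2 (chr5:57758101-57758120): ggGcaagTccagGcatgTtt
LIF (chr22:30641866-30641885): cgAcatgTcctgGtttgCcc
AEN (chr15:89164537-89164556): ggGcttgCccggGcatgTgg
MIR34AHG (chr1:9242203-9242222): gaAcaagCccagGcaagCcc
NEAT1 (chr11:65188791-65188810): gaGcaagCctggGcttgCca

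The next sequences come from the sites with the largest fold enrichment in untreated cells and from those with the smallest K120R signal relative to WT. They are shown as the extremes of signal among the sites. Sites outside known targets are called by the gene that holds the summit or has the nearest start.
ENSG00000286979, largest untreated signal (chr2:70824222-70824241): gaAcatgCccagGcatgTct
LINC01732, large untreated signal (chr1:181104278-181104297): agGcatgCccggGcatgTct
RPL22P19, large untreated signal (chr12:125423273-125423292): ggAcgtgCccagGcatgTcc
APBB2, large untreated signal (chr4:41146994-41147013): ggGcatgTtgggAcatgCct
GAS6, large untreated signal (chr13:114540395-114540414): ggAcacgCctggGcatgTcc
SUSD1, smallest K120R ratio (chr9:114907243-114907262): ggGcatgCctggGcatgCct
PHF14, small K120R ratio (chr7:11122550-11122569): ctAcatgCccagGcatgCca
LINC01911, small K120R ratio (chr2:147454930-147454949): ggGcatgTctggGcaagTca

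For contrast, the first 4 sequences below are from sites with a strong untreated WT peak and no K120R peak, and the last 3 are from sites with a strong K120R peak and no untreated WT peak. These examples were chosen after their values were seen.
AC116606.1, no K120R peak (chr5:57131230-57131249): ggGcttgCccagGcatgAtc
CAMK2D, no K120R peak (chr4:114482487-114482506): ggAcatgCctggGcatgCct
LINC02846, no K120R peak (chr9:139001670-139001689): cgGcatgCccggGcacgCtg
MRPS36P2, no K120R peak (chr4:187841846-187841865): ggAcatgCccggGcaaaGgc
CAMK2B, no untreated peak (chr7:44286108-44286127): gaAcatgCccacAcatgTac
METTL15, no untreated peak (chr11:28161581-28161600): gtGcatgTgcagAcatgTcc
GTDC1, no untreated peak (chr2:144860139-144860158): gaGgttgCtttgAcatgTca

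Signal is given as the fold enrichment of a peak, the height of its fragment pileup over the background estimated there from the input by the authors' peak caller. The ChIP libraries held between 33059650 and 34857204 tags. Fragments were taken as 170 bp long for WT p53 with Tet and as 64 to 68 bp long for the other libraries, so fold enrichments from different lists are set side by side and are not on 1 scale. At these sites, the median fold enrichment was 32.2 for WT p53 with Tet (quartiles 21.9 and 43.9), 8.97 for WT p53 without Tet (6.41 and 13.5) and 9.6 for K120R p53 with Tet (7.15 and 14.1). These values belong to the lists that chose the sites and are descriptions, and an order between lists below is an order of the listed values.

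The sites lay at the top of the induced WT list. Of the 253, 241 (95.3%) were in its highest quartile, which began at a fold enrichment of 12.4, and their median was 4.4 times that of the other WT peaks. Of all WT peaks with Tet, 9.27% overlapped an untreated WT peak and 25.2% a K120R peak. A K120R peak was present at 63.1% of the 401 sites bound without Tet and at 21.4% of the 3925 WT peaks that appeared only with Tet. Within the highest quartile, it was present at 67.5% of 357 sites with an untreated peak and at 42.6% of 728 sites without one. In the next quartile the shares were 28.1% of 32 and 24.3% of 1065. The quartile below that had a K120R peak at 0 of 6 sites with an untreated peak and at 14.7% of 1077 without one. In the lowest quartile the shares were 3 of 6 and 10.6% of 1055. These 3 sites are the adjacent chromosome 8 peaks without an RE described below. The 148 sites bound without Tet but without a K120R peak had lower medians than the sites with one, 19.5 with Tet and 6.76 without. The 839 sites that had a K120R peak and appeared only with Tet had medians of 10.1 in the WT list and 7.19 in the K120R list.

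**Figure D1:**
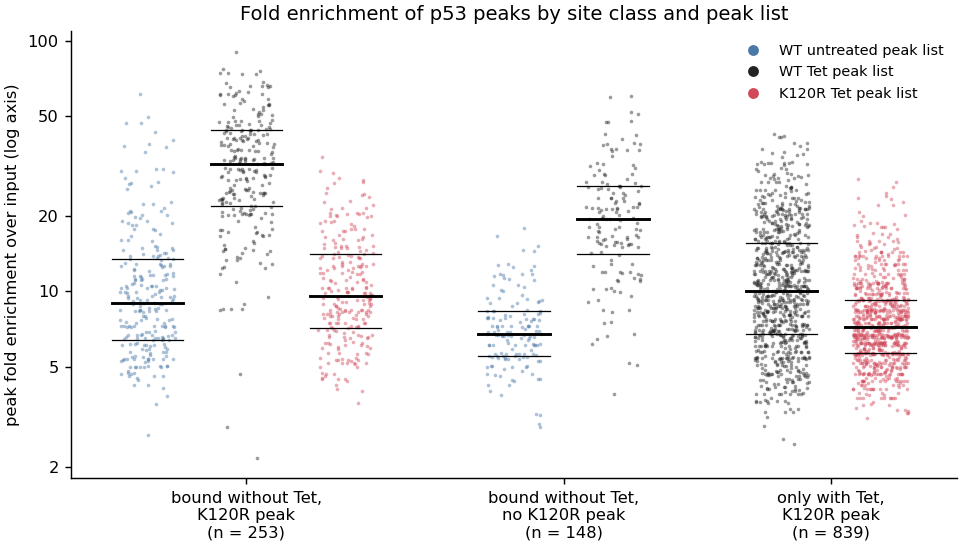
Fold enrichment over input (log axis) of each peak, with 1 point per site, for 3 classes of WT sites and, by colour, the peak list the value comes from. The thick line is the median and thin lines are quartiles. The sites bound without Tet and kept by K120R p53 (left) have the highest WT values after Tet treatment, with a median of 32.2 against 19.5 and 10.1 in the other classes.

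The order of the sites was partly shared between libraries. Over the 253 sites, Spearman's rho of fold enrichment was 0.51 between WT p53 without and with Tet, 0.45 between K120R p53 and WT p53 with Tet, and 0.35 between K120R p53 with Tet and WT p53 without. The points of each correlation share the same chromatin and sequence, and no p-value was computed. The listed K120R value exceeded that of WT p53 without Tet at 136 of the 253 sites. The median ratio of K120R to WT fold enrichment with Tet was 0.322 (quartiles 0.234 and 0.454), against 0.719 at K120R sites that appeared only with Tet. A -log10 q of at least 10 was reached by the K120R peaks of 170 sites (67.2%), against 10.8% of all WT peaks and 42.9% of the 1092 WT peaks with a K120R peak. The rule required a K120R peak, so these shares are a description.

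**Figure D2:**
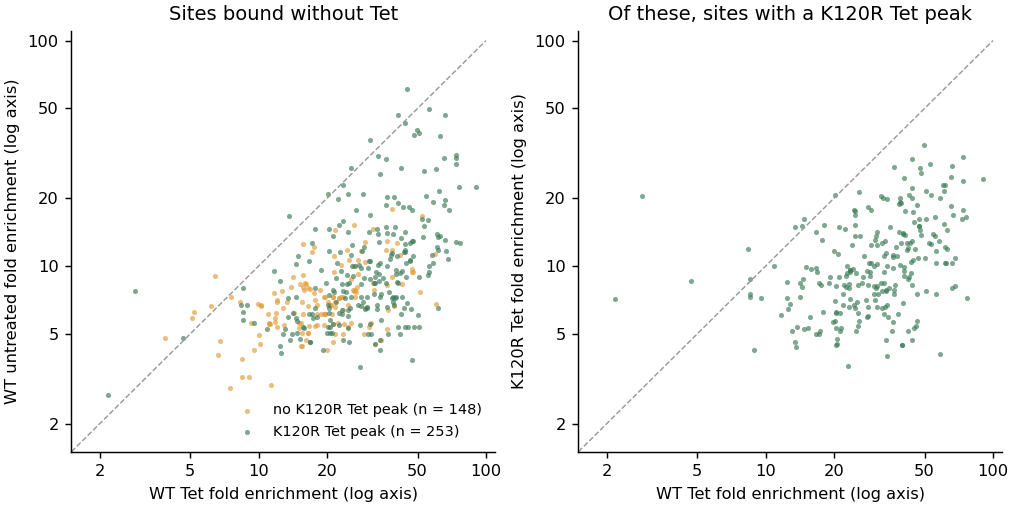
Fold enrichment of WT p53 with Tet (horizontal, log axis) against WT p53 without Tet (left) and K120R p53 with Tet (right), both log axes, with 1 point per site and a dashed line of equal values. Green points are the 253 sites with a K120R peak, and orange points are the 148 sites bound without Tet that lack one. Most points lie below the line, and 9 of the 253 lie above it in each panel.

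CDKN1A encodes the cyclin-dependent kinase inhibitor p21 and held the largest K120R signal of all 253 sites. The peak over its start had fold enrichments of 40.2 for WT p53 without Tet, 49.7 for WT p53 with Tet and 34.4 for K120R p53 with Tet. A CDKN1A site in an intron, with its summit 906 bp from that of the first, had 6.7, 20.2 and 7.02 in the same order. The values of the second site were lower than those of the first in each list.

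The sites of the other genes of cell cycle arrest had smaller K120R values than the peak over the CDKN1A start. GADD45A, a stress sensor that restrains the cell cycle, had 20.3 for WT p53 without Tet, 39.5 with Tet and 19.1 for K120R p53. ZMAT3, an RNA-binding p53 target, had 26.4, 53.5 and 12.5, and PLK2, a Polo-like kinase, had 13.4, 61.4 and 10.3. CCNG1, which encodes cyclin G1, had 10.2, 14.5 and 8.09. The WT value with Tet was the highest of the 3 at each of these sites, and the K120R value was the lowest.

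Sites at 3 genes that feed back on p53 had K120R to WT ratios of 0.454 to 0.745. MDM2, the ubiquitin ligase that marks p53 for degradation, had fold enrichments of 13.9 for WT p53 without Tet, 36.8 with Tet and 27.4 for K120R p53, so that K120R p53 lay above untreated WT p53. RPS27L, a paralogue of a ribosomal protein, had 38.0, 48.1 and 25.9, with K120R p53 lowest. TRIAP1, a mitochondrial protein that opposes apoptosis, had 8.75, 31.0 and 14.1.

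At 4 DNA repair genes, the K120R value was below that of untreated WT p53. DDB2, which recognises ultraviolet lesions, had 18.3 for WT p53 without Tet, 45.8 with Tet and 5.43 for K120R p53. RRM2B, a subunit of the p53-inducible ribonucleotide reductase, had 21.5, 62.2 and 10.3. REV3L, the catalytic subunit of a translesion polymerase, had 18.7, 36.3 and 11.2, at a site that also lies in an exon of TRAF3IP2-AS1, and PCNA, the sliding clamp, had 9.53, 11.7 and 6.05. PCNA had the smallest WT value with Tet of these sites, and DDB2 the smallest K120R value.

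Apoptosis genes were among the targets with a site as well. BBC3, which encodes PUMA, a BH3-only activator of apoptosis, had fold enrichments of 26.9 for WT p53 without Tet, 60.2 with Tet and 22.8 for K120R p53 at a site in an intron, and 9.98, 26.6 and 8.43 at a site in its coding sequence. The intronic site also had a K120R peak without Tet, with a fold enrichment of 8.41. The death receptor gene FAS had 6.14, 23.3 and 8.34. TNFRSF10B, which encodes the death receptor DR5, had 6.45, 33.1 and 11.1. BCL2L1, which encodes the anti-apoptotic protein BCL-XL and an opposing splice form, had 4.69, 23.4 and 9.36. At these 3 genes K120R p53 was above untreated WT p53. AEN, an apoptosis-enhancing nuclease, went the other way, with 27.2 without Tet, 25.4 with Tet and 5.42 for K120R p53.

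The remaining target genes with a site belong to metabolism, signalling, transcription and non-coding RNAs. SESN1, a sestrin that restrains mTORC1, had 10.5 for WT p53 without Tet, 16.6 with Tet and 14.2 for K120R p53, and TIGAR, which lowers glycolytic flux, had 5.75, 8.54 and 7.26. Among the 31 sites at listed genes, K120R p53 came closest to WT p53 with Tet at these, with ratios of 0.857 and 0.849, and at LIF, the leukaemia inhibitory factor gene, with 12.3, 25.8 and 21.4. The receptor kinase gene EPHA2 had 13.6, 21.1 and 14.9, and the stress cytokine gene GDF15 had 14.6, 17.7 and 13.1, with a second site in a UTR of the adjacent gene PGPEP1 at 25.7, 34.1 and 19.8. ATF3, a stress-induced transcription factor, had 15.1, 53.1 and 20.6. Among non-coding RNA genes, the site beside MIR34AHG, the host gene of miR-34a, had 38.7, 50.9 and 16.2, and that beside NEAT1, which builds paraspeckles, had 29.9, 36.3 and 11. PVT1 had 11.4, 38.5 and 18.9, LINC-PINT had 6.37, 23.3 and 6.61, and LINC00475 had 20.9, 28.7 and 9.0.

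In all, 28 of the 111 annotated genes on a list of known p53 targets (25.2%) had such a site inside them or within 10 kb, against 211 of 20176 protein-coding genes (1.05%). The list was assembled from known targets, so its excess over all genes is no finding. By role, a site lay beside 5 of 15 genes of cell cycle arrest, 3 of 7 that feed back on p53, 4 of 10 of DNA repair, 5 of 19 of apoptosis and 5 of 8 non-coding RNAs. A site also lay beside 2 of 18 genes of metabolism and redox control, 3 of 22 of signalling and secretion and 1 of 12 of transcription, and no difference between roles was tested. PLK3, TP53INP1, BAX, STK17A and NOTCH1 had a site bound without Tet with no K120R peak and none of the 253 sites. The 31 sites at listed genes had a median K120R to WT ratio of 0.388, against 0.322 over all 253.

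**Figure D3:**
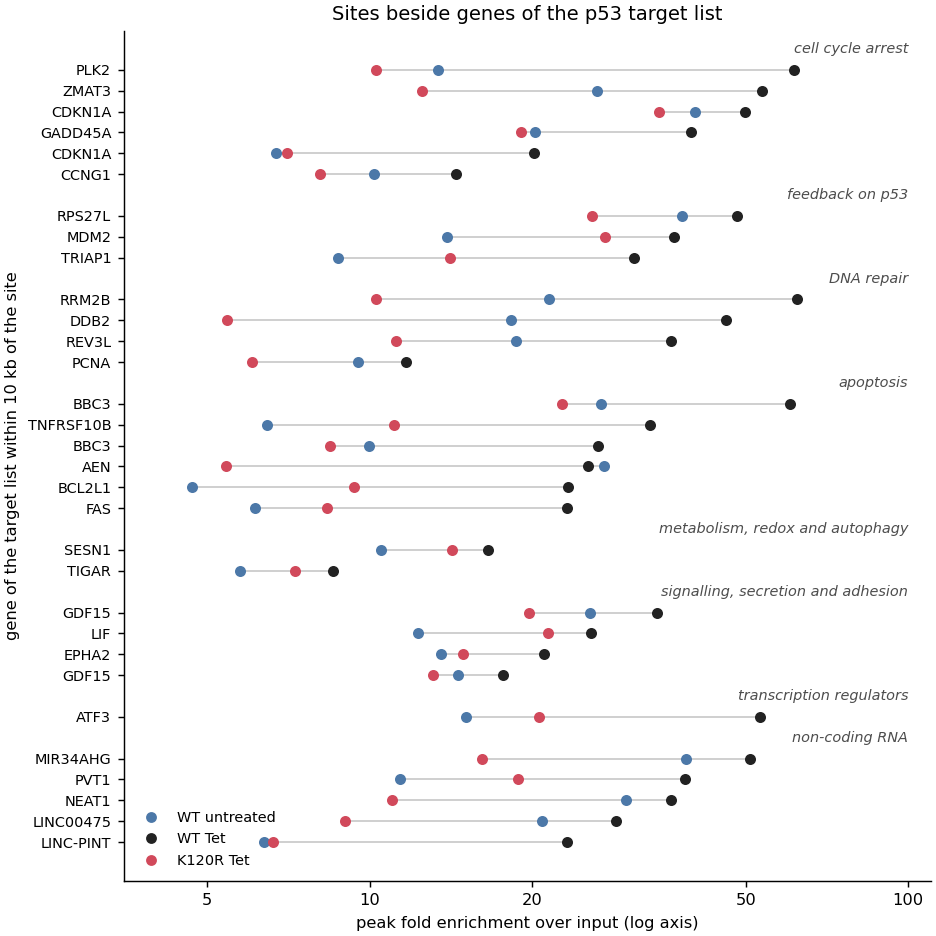
Fold enrichment over input (log axis) at the 31 sites within 10 kb of a gene on the target list, 1 row per site, grouped by role. Blue points are WT p53 without Tet, black points WT p53 with Tet and red points K120R p53 with Tet. Red lies right of blue at MDM2, TRIAP1, TNFRSF10B, BCL2L1, FAS, SESN1, TIGAR, LIF, EPHA2, ATF3, PVT1, LINC-PINT and the second CDKN1A site. It lies left of blue in all other rows, those of the 4 DNA repair genes among them.

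The strongest sites without Tet were mostly outside these genes. The largest fold enrichment without Tet was 61.3, at ENSG00000286979, an intergenic site 42915 bp from the nearest coding start, that of TGFA, where WT p53 with Tet had 44.8 and K120R p53 had 15.7. LINC01732 had 49.9 without Tet, 56.0 with Tet and 11.7 for K120R p53. The sites of RPL22P19 and APBB2 both had 46.9 without Tet, with 66.0 and 40.8 with Tet and 27.8 and 24.5 for K120R p53. GAS6, a ligand of the TAM receptor kinases, had 43.2, 44 and 29.8, which makes it one of the 5 largest K120R values. MTHFD1L, a mitochondrial folate enzyme, had 37.7, 62.9 and 14.5. At ENSG00000229337 the values were 36, 30.8 and 8.12. The order of signal without Tet was thus not the order for K120R p53, and 9 of the 253 sites, those of ENSG00000286979, APBB2 and AEN among them, had a larger fold enrichment without Tet than with it. Pileup at these named sites was larger with Tet, at 312.88, 284.79 and 202.45, against 117, 99 and 70 without. Fragment lengths differed between the lists as given above.

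Besides CDKN1A, GAS6 and RPL22P19, the largest K120R values were 30.3 at CAMK4 and 28.4 at MAMDC2. CAMK4 encodes a calcium/calmodulin-dependent kinase, and its site had 30.9 without Tet and 74.1 with Tet. The site near MAMDC2 had 13.5 and 52.8. At the other end, K120R p53 had 4.07 at SUSD1, where WT p53 had 19.2 without Tet and 58.5 with Tet, and the ratio of 0.0696 was the smallest of all. PHF14 had 12.7, 77.0 and 7.22 (ratio 0.0938), and LINC01911 had 11.8, 43.9 and 4.69 (ratio 0.107). The -log10 q of the K120R peaks at these 3 sites was 1.98, 6.88 and 3.48, whereas the untreated WT peaks reached 49.0, 25.4 and 17.6.

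The 3 largest ratios, 1.83, 3.3 and 7.11, belonged to 3 adjacent peaks on chromosome 8 near ENSG00000253884. They also had K120R peaks without Tet (fold enrichments 7.3, 3.27 and 9.23), low WT values with Tet (4.67, 2.17 and 2.87) and without Tet (4.82, 2.66 and 7.78), K120R values with Tet of 8.56, 7.15 and 20.4, and no RE. With BBC3 they made up the 4 sites at which untreated K120R cells had a peak, against 0.139% of all WT peaks. Signal at these 3 peaks was thus present without Tet in both lines, and whether it depends on p53 was not tested. Without these 4 sites, the remaining 249 had an RE in 99.2% of cases, and the differences in G/C and mismatches given below moved by less than 1 percentage point.

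At the edge of the rule, the smallest overlaps were 41 bp at STK11, where the 3 values were 4.99 without Tet, 12.8 with Tet and 6.81 for K120R p53, and 64 bp at PCNX1, with 5.91, 13.4 and 14.9. LARP1 and PSD3 also had an overlap of 64 bp. Just outside it, a K120R site near the 3 chromosome 8 peaks lay 271 bp from an untreated WT peak, with 4.88 for WT p53 with Tet and 12.5 for K120R p53, and YBX3 lay 535 bp away, with 6.3 and 6.59.

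An RE with at most 4 mismatches lay within 100 bp of the WT summit at 248 of the 253 sites (98%, exact Clopper-Pearson 95% interval 95.4 to 99.4%), against 91.9% of all WT peaks. Windows of the same length 3000 bp to either side of all WT summits held one in 24.3% of cases. With at most 2 mismatches the share was 85.4% (80.4 to 89.5%), against 53.2% of all WT peaks and 0.601% of the flanking windows. The 5 sites without an RE were ATF3, LMNA and the 3 chromosome 8 peaks. At LMNA, which encodes the nuclear lamins A and C, the fold enrichments were 6.73 for WT p53 without Tet, 8.4 with Tet and 11.9 for K120R p53. The best window at ATF3 and LMNA had 5 mismatches. These intervals, like those below, cover the sampling of sites only and not variation between experiments.

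The RE found at the WT summit with Tet lay at different distances from the summits of the other lists. Its centre lay a median of 8.5 bp from the WT summit with Tet, 22.0 bp from the WT summit without Tet and 21.0 bp from the K120R summit. The WT summit with Tet was the one used to search for the RE. The median pileup, a scaled signal height over the summit, was 143 with Tet, 18 without and 22.4 for K120R p53, and the fragment length differed as given above. The part of these values in the distances was not tested.

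**Figure D4:**
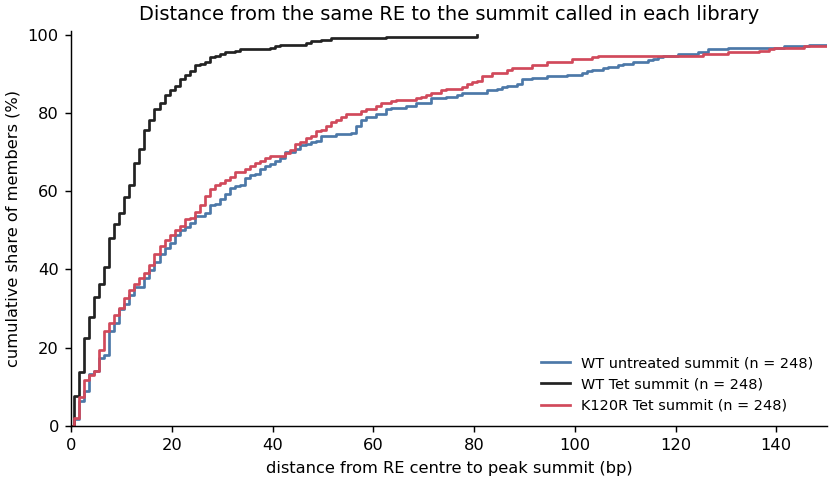
Cumulative share of the 248 sites with an RE (vertical, %) by the distance in bp from the centre of the RE to the summit called in each library (horizontal, to 150 bp). The curve of WT p53 with Tet rises first, with a median of 8.5 bp, and those of WT p53 without Tet and K120R p53 run together, with medians of 22.0 and 21.0 bp.

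The bases beside the cores were intermediate between those of sites bound without Tet that lacked a K120R peak and those of K120R sites that appeared only with Tet. Of the 248 REs, 33 had 0 G/C bases at positions 3, 8, 13 and 18, 75 had 1, 108 had 2, 28 had 3 and 4 had 4. REs with 0 or 1 G/C made up 43.5% of them and 38% of the 3976 REs at all WT peaks. The share was 6.9% among the 145 REs at sites bound without Tet that lacked a K120R peak, a difference from the sites described here of 36.7 percentage points (Newcombe 95% interval 28.6 to 43.6). None of these 145 REs had 0 G/C (0 of 145, which allows a share of up to 2.51% by the exact interval). Among the 776 REs of K120R sites that appeared only with Tet, 73.7% had 0 or 1 G/C, so the sites described here were 30.2 points lower (23.2 to 36.9 points). REs with 3 or 4 G/C made up 12.9, 45.5 and 6.31% of the 3 classes and 26.6% of all. The study chose these 4 positions by comparing REs with and without K120R binding in these libraries, so their direction between the first pair of classes is not independent evidence. The comparison with sites that appeared only with Tet is between classes that both have a K120R peak. The classes also differed in WT fold enrichment. In the highest quartile alone, the differences were 36.4 (27.7 to 43.6) and -27.4 points (-35.2 to -19.1). That quartile spanned fold enrichments of 12.4 to 90.7, and the classes were not matched within it. The repeat therefore does not remove their difference in WT fold enrichment.

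**Figure D5:**
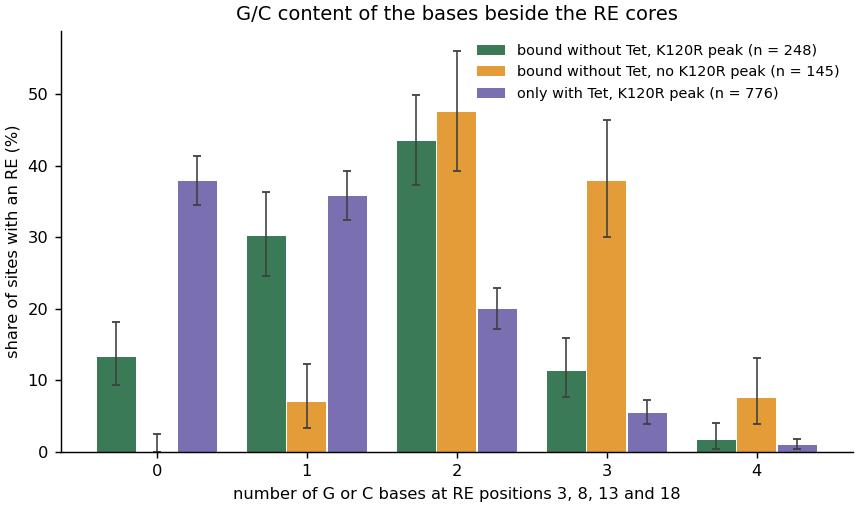
Share of REs (vertical, %) with 0 to 4 G/C bases at positions 3, 8, 13 and 18 (horizontal) in 3 classes of WT sites, with exact 95% intervals. The class bound without Tet and kept by K120R p53 (green) peaks at 2 G/C with 43.5%, the class without a K120R peak (orange) reaches to 3 and 4 with 45.5% in all, and the class that appeared only with Tet (purple) is highest at 0 with 37.9%.

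G/C content differed at other bases too. It averaged 39.4% at the 4 positions in the sites described here, 61.6% in sites without a K120R peak and 23.9% in K120R sites that appeared only with Tet. At the other 8 bases outside the cores it was 64.6, 71.1 and 50.6%, and within the cores 51.5, 50.2 and 51.5%. The step from the sites described here to those that appeared only with Tet was nearly as large at the other outer bases (14 points lower) as at the 4 positions (15.5 points lower), whereas the step to sites without a K120R peak was larger at the 4 positions (22.1 against 6.5 points higher). The median G/C content within 100 bp of the summit was 47.3, 50 and 42.3%. The part of this wider composition in the differences was not tested.

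Matches to the consensus set the sites apart from a different class. REs with 0 or 1 mismatch made up 58.9% of these sites and 60.7% of sites bound without Tet that lacked a K120R peak, a difference of -1.82 points with an interval of -11.6 to 8.25. They made up 19.7% of REs at K120R sites that appeared only with Tet, 39.2 points fewer (interval 32.3 to 45.7), and 21.8% of REs at all WT peaks. Of the REs, 54 (21.8%) matched the consensus at every base, against 25.5% at sites bound without Tet that lacked a K120R peak. The share was 2.45% at K120R sites that appeared only with Tet and 6.24% at all WT peaks. The G/C difference was present at both levels of match. REs with 0 or 1 G/C were 44.5, 5.68 and 77.8% of those with 0 or 1 mismatch in the 3 classes, and 42.2, 8.77 and 72.7% of those with 2 to 4.

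A mismatch within a core was present in 22.6% of the REs and in 32.4% of those at all WT peaks. The share was 13.8% at sites bound without Tet that lacked a K120R peak and 26.5% at K120R sites that appeared only with Tet. The sites described here were 8.79 points above the former (0.687 to 16.1) and differed from the latter by -3.97 points (-9.71 to 2.38). The core CATG made up 67.9% of their cores, against 69.7 and 58.4% in these classes and 59.0% at WT peaks with neither an untreated WT peak nor a K120R peak. More than 1 RE within 200 bp of the summit was found at 49.8% of sites, against 44.6 and 49.8% in the same classes and 42.9% of all WT peaks. The motif of AP-1 factors (TGACTCA or TGAGTCA, on either strand) was found within 100 bp of the summit at 7.11%, against 7.43 and 6.32% in these classes, 4.58% of all WT peaks and 3.26% of flanking windows, and both intervals of the difference between classes included 0.

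Within the sites, K120R signal was larger where the 4 positions were poorer in G/C. The median K120R fold enrichment was 14.2 for 0 G/C, 10.4 for 1, 9.05 for 2, 7.74 for 3 and 8.08 for the 4 REs with 4. WT p53 without Tet went the other way, with medians of 7.29, 8.41, 9.51, 9.98 and 14.1, and WT p53 with Tet varied between 28.2 and 34.1 with no order. CDKN1A and MDM2, with 0 G/C, had the largest K120R values of the first group, and SUSD1, with 4, had the smallest ratio. The REs with 4 G/C lay at SUSD1, beside NEAT1, near ACTB and near TRIM55. The median signal without Tet was 11.6 for REs with 0 mismatches and between 7.84 and 8.97 for those with 1 to 4. These are descriptions of values that took part in the choice of sites.

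Some of the sites shared 1 RE sequence, read on either strand. The 248 REs had 226 distinct sequences, and 15 of these were held by more than 1 site, 37 sites in all. Such copies are not independent of each other. An RE whose exact sequence also lay under another WT peak made up 25% of the REs, compared with 52.4% at sites without a K120R peak (27.4 points fewer, 17.5 to 36.8) and 14.9% at K120R sites that appeared only with Tet (10.1 points more, 4.4 to 16.3). It made up 32.1% of the 2807 REs at WT peaks with neither an untreated WT peak nor a K120R peak. The copies below show that 1 sequence occurred at sites with different binding, and were chosen after their values were seen.
LINC01911 and 4 other sites (chr2:147454930-147454949): ggGcatgTctggGcaagTca
WNK1 and KDM4C (chr12:957115-957134): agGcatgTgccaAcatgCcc
MED4 and SUGCT (chr13:48646597-48646616): ggGcttgTctggGcatgCcc
GOLGA2P11 and MTHFD1L (chr15:62554976-62554995): ggAcatgCctggGcatgTcc

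The first of these sequences lay under 17 WT peaks. Of them, 5 were sites described here, 7 had an untreated WT peak without a K120R peak, and 5 had neither, with median WT fold enrichments with Tet of 38.2, 26.4 and 14.6. The second lay under 70 WT peaks, of which 2 were sites described here (median 35.3), 11 were bound without Tet and lacked a K120R peak (21.5) and 57 had neither (11.8). The third lay under 10 peaks, with 2 such sites, 7 without a K120R peak and 1 with neither. The fourth was found only under the peaks of GOLGA2P11 and MTHFD1L, with 10.6 and 37.7 without Tet and 13.6 and 14.5 for K120R p53. The sequences of LINC01911, WNK1 and MED4 thus occurred with and without a K120R peak. In each, the median fold enrichment of WT p53 with Tet was highest at the copies that had one, which numbered 5, 2 and 2. These copies are sites described here, of which 95.3% were in the highest quartile of that list. The sequences were also chosen after their values were seen. This order is therefore a description, and a link between WT signal and a K120R peak was not tested with it. The authors used uniquely mapping reads, so the copies may also differ in how well they could be mapped, and this was not tested.

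Summits lay in introns at 147 sites (58.1%), between genes at 87, in non-coding exons at 9, in UTRs at 7 and in coding sequence at 3. The intron share was 59.8% over all WT peaks. It was 47.3% at sites bound without Tet that lacked a K120R peak (10.8 points less, 0.703 to 20.7), and the difference from K120R sites that appeared only with Tet was -1.61 points (-8.58 to 5.19). Of the sites, 20.9% had a summit within 1 kb of an annotated transcription start, against 12.6% of all WT peaks, 16.9% of sites without a K120R peak (4.06 points more, -4.18 to 11.6) and 13.7% of K120R sites that appeared only with Tet (7.24 points more, 2.04 to 13.1). Within 5 kb of a start, the differences were 9.92 (-0.0657 to 19.4) and 5.37 points (-1.51 to 12.3). Chromosome 6 held 28 sites (11.1%) and 6.56% of all WT peaks, and chromosome 8 held 25 (9.88%) and 5.52%. Only 6 pairs of neighbouring sites lay within 10 kb of each other, those of CDKN1A, BBC3, GDF15 with PGPEP1, HLA-B with ENSG00000229836, and 2 pairs among the chromosome 8 peaks. In all, 20 differences in shares between classes were computed, and the intervals of 11 excluded 0 without adjustment for their number.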

How the data were processed

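The authors aligned uniquely mapping 75-bp reads to GRCh37 with BWA and called peaks, with the matching input as control, by MACS version 2.1.1.20160309 at a q-value cutoff of 0.05. The deposited pileup is a signal height, and the deposited fold enrichment is its ratio to the local background. The authors' p-values and q-values were deposited on the -log10 scale. All deposited lists of a library held the same peaks (488, 4326, 12 and 2023), and lists hold only regions above the cutoff, so a missing peak means that none was called at 33059650 to 34857204 tags.

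Peaks were overlapped (at least 1 bp), REs were searched in GRCh37 without an insert between decamers, and genes were taken from GENCODE release 44. Shares carry exact Clopper-Pearson and differences Newcombe 95% intervals. As each condition had 1 library, no test compared conditions. Named sites are the 10 largest without Tet, the 5 largest for K120R p53, the 3 smallest and 3 largest ratios, those within 10 kb of listed target genes, those at the edge of the rule and those with an untreated K120R peak. Sites named for having no RE, 4 G/C or a shared sequence were chosen after their values were seen. The sites, gene list and comparisons were chosen with earlier results of these data known. The search and intervals were tested on simulated data. Python 3.11.15, numpy 2.4.6, pandas 2.3.3, scipy 1.17.1 and matplotlib 3.10.9 were used.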

Additional observations from a re-analysis of the deposited data

Results flagged for a closer look

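Untreated K120R cells, whose list the rule does not use, had a peak at 4 of the 253 sites, in an intron of BBC3 and at the 3 adjacent peaks on chromosome 8. These sites held 10 of the 12 K120R peaks without Tet. They stand out because the condition served as a control without induction.

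In untreated WT cells, 74 of the 488 peaks overlapped no WT peak of Tet-treated cells and are not among the sites described. Their fold enrichments had a median of 4.64 and a range of 1.53 to 27.2. Of these, 2 overlapped a peak of K120R p53 with Tet and 0 overlapped one without Tet.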

How the results depend on the processing

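Of 105 values recomputed under other settings, 95 kept their direction and their side of 0, or stayed within their range. A -log10 q of at least 10 in all lists left 111 sites. The ratio of the median WT fold enrichment to that of other WT peaks was 3.88 with a fold enrichment of at least 5 in all lists and 4.77 for pileup in place of fold enrichment. Within 5 kb of a transcription start, the difference from K120R sites that appeared only with Tet was 5.37 points (-1.51 to 12.3) and that from sites without a K120R peak 9.92 (-0.0657 to 19.4). The difference in REs with 0 or 1 mismatch from sites without a K120R peak turned positive at a -log10 q of at least 5 (2.96 points), at a -log10 q of at least 10 (9.32) and with at most 2 mismatches (0.417), and each interval included 0. The share with an RE was 85.4% with at most 2 mismatches, 91.7% with listed sequences of the source data only and 99.6% in the highest quartile of WT fold enrichment. Counting each RE sequence once per class, an alternative added after seeing the data, gave differences in 0 or 1 G/C of 36.9 and -26.6 points. The causes were not tested beyond what each setting removes. No paired analysis was possible because each condition had 1 library. Comparisons of repeat sequence were not run, because the reference does not mark repeats. With 1 library per condition, variation between experiments is unknown.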
